A study of Mus musculus with 3 samples.

Results

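A set of 10 genes of transforming growth factor beta (TGF-beta), activin and SMAD signalling were followed in the cytosolic RNA of lipid A-treated mouse macrophages. The genes were taken by name from this pathway, as 10 of the 55418 gene symbols quantified. It holds the ligand genes Tgfb1 and Inhba, the receptor genes Tgfbr1 and Tgfbr2, the signal transducers Smad2, Smad3 and Smad4, the inhibitory Smad7, and the co-repressors Ski and Skil. All 10 were detected in all 3 libraries.

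TGF-beta is secreted in a latent complex and acts, once released, on a pair of membrane kinases. The type II receptor (Tgfbr2) binds it and phosphorylates the type I receptor (Tgfbr1), which phosphorylates SMAD2 and SMAD3. Activin A, a dimer of the Inhba product, reaches the same SMADs through activin receptors. Phosphorylated SMAD2 and SMAD3 join SMAD4 and enter the nucleus, where SKI and SKIL (SnoN) can hold the complex in a repressed state. SMAD7 blocks the type I receptor and recruits ubiquitin ligases to it. In macrophages the pathway is known for restraining inflammatory gene expression.

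Every library came from the same kind of sample, so no group could be set against another. The cells were bone marrow-derived macrophages of C57BL/6J mice, grown from marrow in culture, and given 100 ng/ml lipid A, the toll-like receptor 4 agonist of bacterial lipopolysaccharide, for 90 min. RNA was taken from the cytosolic fraction and depleted of ribosomal RNA, with 1 µg as input, in 3 libraries labelled biological replicates 1, 2 and 3. Untreated cells and other cell fractions were not analysed here, so the values say nothing of a response to lipid A or of RNA outside the cytosol. The labels give 1 donor ID for all 3, so the spread between libraries may be partly technical.

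Expected counts assigned to annotated genes came to 33671556, 47764593 and 59332546 in replicates 1, 2 and 3. All 10 macrophage markers tested were called above the typical expressed gene, and together they held 7843 to 10306 TPM (transcript abundance per length, scaled to the same total in each library). Lyz2, Ctsd and Cd68 had the highest levels of these. Markers of other cells summed to 0.16 to 0.24 TPM for fibroblasts (Lum at 0), 9.20 to 12.5 TPM for endothelium (Tek and Cldn5 at 0), 2.81 to 6.41 TPM for B cells and 24.4 to 41.9 TPM for neutrophils (Ly6g at 0). Most of the endothelial sum was Vwf (8.32 ± 1.48 TPM, not called) and Kdr (1.98 ± 0.38 TPM, called below), and most of the B cell sum was Ighm (3.59 ± 1.87 TPM, not called). Most of the neutrophil sum was S100a9 (19.3 ± 5.51 TPM, called above) and S100a8 (12.2 ± 3.86 TPM, not called). T and NK cell markers summed to 0.24 to 0.32 TPM (Cd3g and Nkg7 at 0), dendritic cell markers to 2.14 to 2.59 TPM, mast cell and basophil markers to 0.05 to 0.19 TPM (Tpsb2 and Cma1 at 0) and erythroid markers to 0.74 to 1.08 TPM (Hbb-bs at 0). Platelet and megakaryocyte markers reached 132 to 181 TPM, almost all of it Pf4 (163 ± 27.9 TPM, SD, n = 3), while Ppbp had 0.71 ± 0.33 TPM and Itga2b 0.23 ± 0.10 TPM. In these bulk samples fewer cells of a type and less RNA per cell cannot be told apart. Malat1, a nuclear long noncoding RNA, had 128, 335 and 913 TPM in replicates 1, 2 and 3, and Neat1, another one, had 12.9, 24.1 and 66.9 TPM.

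Of these genes, 4 make mRNAs that differ by a short in-frame segment of the coding sequence. The share of each form could be read from the deposited transcript-level TPM, in a first and a second quantification of the same reads. These segments were chosen after transcript values had been seen. The sequences below cover the receptors and Skil, and that of Smad2 is not shown. Capitals mark the segment, and lower case marks 20 bases on each side, in GENCODE M21 transcripts on mm10. The Tgfbr2 segment is an exon of 75 bases (25 residues), chr9:116158271-116158345, minus strand, near the start of the extracellular domain, present in Tgfbr2-202 and absent from Tgfbr2-201. The Tgfbr1 segment has 12 bases (4 residues), chr4:47393247-47393258, plus strand, present in Tgfbr1-201. The Skil segment has 138 bases (46 residues), chr3:31113503-31113640, plus strand, and the form that lacks it is known as SnoN2.
Tgfbr2-202: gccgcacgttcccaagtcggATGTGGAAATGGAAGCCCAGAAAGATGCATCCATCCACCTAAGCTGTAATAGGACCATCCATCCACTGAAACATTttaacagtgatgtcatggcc
Tgfbr2-201: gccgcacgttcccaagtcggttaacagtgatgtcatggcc
Tgfbr1-201: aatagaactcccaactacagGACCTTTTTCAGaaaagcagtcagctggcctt
Tgfbr1-202: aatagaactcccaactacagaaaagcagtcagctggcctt
Skil-201: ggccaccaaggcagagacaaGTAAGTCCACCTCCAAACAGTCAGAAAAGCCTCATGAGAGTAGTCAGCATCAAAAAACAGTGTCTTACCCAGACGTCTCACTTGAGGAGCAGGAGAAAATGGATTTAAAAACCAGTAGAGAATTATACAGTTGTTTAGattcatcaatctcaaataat
Skil-204: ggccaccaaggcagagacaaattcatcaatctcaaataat

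The 75-base Tgfbr2 exon was in 49.3, 51.1 and 52.5% of Tgfbr2 TPM in replicates 1, 2 and 3 (51.0 ± 1.63%, SD, n = 3). Both receptor forms were thus present at near-equal levels in the first quantification. The second quantification gave the form with the exon 32.7, 31.9 and 33.1% (32.6 ± 0.62%), below every value of the first. These transcripts also differ in length, 8092 bases for Tgfbr2-202 and 3476 bases for Tgfbr2-201, and the part of this in the gap was not tested. Their last exons have 6265 and 1629 bases. The shares are those of whole transcripts, so they are not a direct measure of exon inclusion. The 12-base Tgfbr1 segment was in 90.0, 91.8 and 91.8% of the TPM of transcripts that span it (91.2 ± 1.07%), and in 83.0 ± 1.59% by the second quantification. The longer type I receptor mRNA was the main form in every library.

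Skil went the other way, with the 138-base segment in the minority. It was in 24.7, 21.8 and 16.2% of spanning Skil TPM in replicates 1, 2 and 3 (20.9 ± 4.34%), and in 27.5, 26.5 and 24.3% by the second quantification (26.1 ± 1.62%). The SnoN2-type mRNA was therefore the main form in every library, and replicate 3 had the lowest share of the longer form in both quantifications. The quantifications placed the segment in different transcripts, however. Skil-201 held 19.8 ± 4.10% of Skil TPM in the first and 2.11 ± 1.32% in the second. Skil-203, which also has the segment, held 0% in the first and 22.2 ± 1.78% in the second. The summed shares were thus close while their parts were not. Smad2 has an alternative exon of 90 bases (30 residues) in its DNA-binding domain, and the full-length protein that contains it is known not to bind DNA directly. That exon was in 84.7, 78.8 and 88.0% of spanning Smad2 TPM (83.8 ± 4.68%), and in 80.9 ± 2.89% by the second quantification. The long form of Smad2 was thus the main one in every library. Spanning transcripts without the exon had 89.6, 185 and 136 expected counts in replicates 1, 2 and 3.

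**Figure D1:**
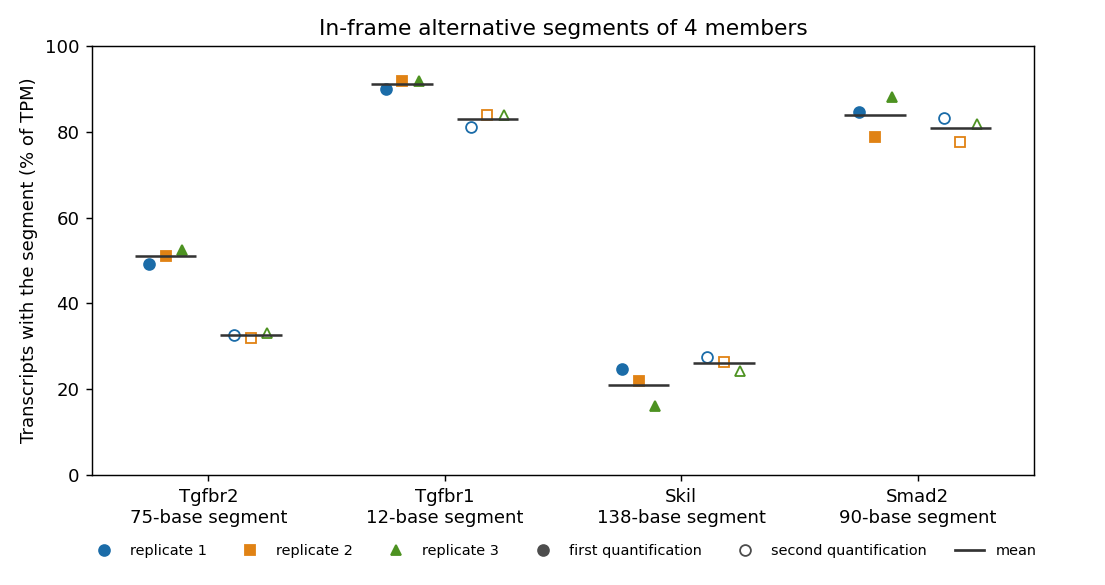
Share (%) of the TPM of spanning transcripts that comes from those with the alternative in-frame segment, for 4 genes. Filled symbols are the first quantification, open symbols the second, with 1 symbol per library and a line at the mean. Tgfbr1 and Smad2 stand near the top and Skil is the lowest in both. Tgfbr2 stands in the middle in the first quantification (mean 51.0%) and nearer to Skil in the second (32.6% against 26.1%).

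Levels were read as TPM, which are corrected for transcript length, so that genes could be compared within a library. The yardstick was the median over 8747 protein-coding genes that averaged 1 TPM or more, and was 7.38, 6.08 and 6.21 TPM in replicates 1, 2 and 3. A gene was called above or below it when limma's moderated one-sample test on log2(TPM + 0.1) gave an adjusted p under 0.05 over all 13327 genes tested and a difference of at least 1. Of the 10 genes, 4 were called above (Tgfb1, Skil, Tgfbr2 and Tgfbr1), against 20.5% of all genes tested, and 2 of them (Tgfb1 and Skil) with a yardstick of genes of at least 5 TPM. Another 2 were called below (Inhba and Smad7), against 50.6% of all genes tested, and Smad3 joined them with that higher yardstick (3 in all). With the first yardstick Smad2, Smad3, Smad4 and Ski were not called and were within a factor of 2 of the yardstick. The median of the 10 was 8.44 TPM, or 0.36 on the log2 scale relative to the yardstick, against 3.15 TPM and -1.06 for all genes tested.

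**Figure D2:**
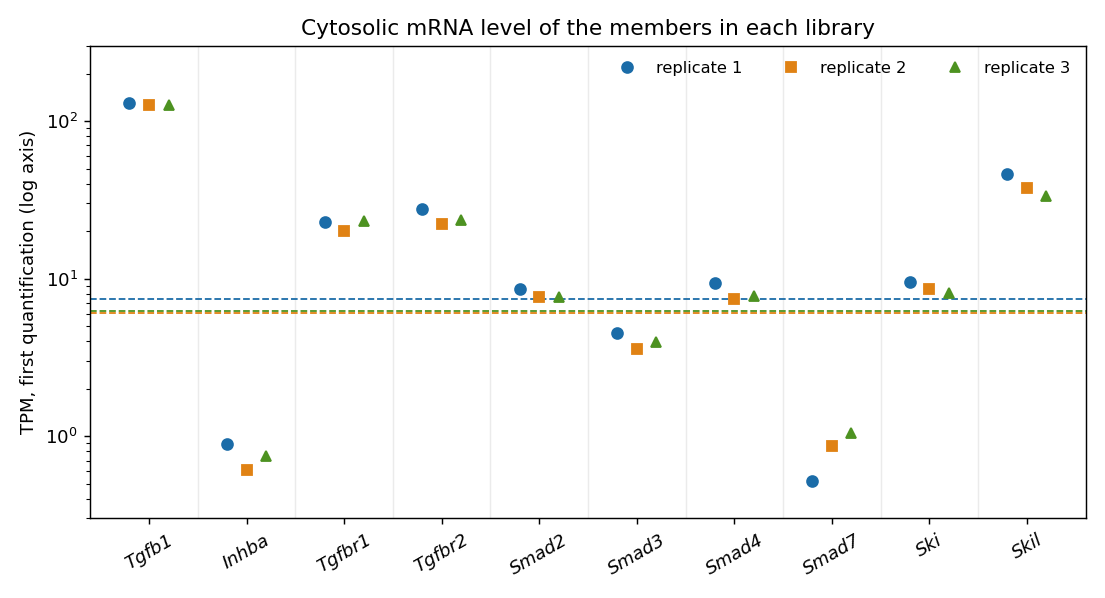
TPM (log axis) of each of the 10 genes in the 3 libraries, with dashed lines at each library's median of expressed protein-coding genes. Tgfb1 stands alone above 100 TPM, Inhba and Smad7 lie near 1 TPM or below it, and Smad2, Smad4 and Ski lie just above the dashed lines.

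By mean TPM the ligand genes stood at opposite ends of the set, though Smad7 was lower than Inhba in replicate 1 (0.52 against 0.89 TPM). Inhba (ENSMUSG00000041324.14, chr13:16011851-16031621, plus strand), which encodes the activin A subunit, had 0.89, 0.61 and 0.75 TPM from 229, 353 and 501 expected counts in replicates 1, 2 and 3. Tgfb1 (ENSMUSG00000002603.15, chr7:25687002-25705077, plus strand), which encodes the TGF-beta ligand itself, had 131, 126 and 126 TPM from 15071, 23050 and 28227 expected counts. The values of the 2 genes did not come near each other in any library. Relative to the yardstick Inhba stood at -2.98 ± 0.13 log2 units (adjusted p = 4.08e-05, limma). Tgfb1 stood at 4.27 ± 0.12 (adjusted p = 3.17e-05, limma), where it exceeded 96.6% of the expressed protein-coding genes. Within libraries the log2 ratio of Inhba over Tgfb1 was -7.05, -7.47 and -7.22, with a mean of -7.24 ± 0.21 (SD, n = 3), a 152-fold lower level. An exact sign-flip permutation test over 3 libraries, two-sided, cannot give a p below 0.25, the value it gave here and for every ratio that follows.

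Tgfb1 mRNA was almost all 1 transcript. Tgfb1-201 held 99.2, 98.4 and 98.2% of Tgfb1 TPM in replicates 1, 2 and 3. Inhba-201 held 61.8, 100.0 and 93.2% of Inhba TPM, a wide range that rests on few counts. Both transcripts of Inhba are annotated as protein-coding, and their coding sequences were not compared here. The range enters the TPM of Inhba, through the effective length used for it. That length was 4299, 6179 and 5829 bases in replicates 1, 2 and 3. Inhba was highest in replicate 1 in raw TPM but lowest there in counts scaled to library size, so its order of libraries depended on the scale. Gene models on the opposite strand overlap Inhba (B230303A05Rik and Gm48444), and both were listed at 0 TPM in every library.

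Receptor mRNAs were both well above the typical expressed gene and close to each other. Tgfbr1 (ENSMUSG00000007613.15, chr4:47353222-47414931, plus strand), the type I receptor kinase, had 22.9, 20.0 and 23.1 TPM. Tgfbr2 (ENSMUSG00000032440.13, chr9:116084293-116175360, minus strand), the type II receptor that binds the ligand, had 27.6, 22.1 and 23.5 TPM. Tgfbr1 was lower than Tgfbr2 in each library, though the ranges of the genes overlap across libraries. The log2 ratio of Tgfbr1 over Tgfbr2 was -0.27, -0.14 and -0.02 in replicates 1, 2 and 3, with a mean of -0.14 ± 0.12. Relative to the yardstick Tgfbr1 was 1.73 ± 0.13 log2 units above (adjusted p = 0.000126, limma) and Tgfbr2 1.88 ± 0.03 above (adjusted p = 4.80e-05, limma). Tgfbr2 had the smaller spread of the pair, and its call, like that of Tgfbr1, was lost when the yardstick was built from genes of at least 5 TPM (0.85 and 0.71 above it).

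The SMADs that carry the signal were near the typical expressed gene. Smad2 (ENSMUSG00000024563.16, chr18:76241580-76310963, plus strand), which needs SMAD4 for its DNA contacts in the main protein form, had 8.62, 7.59 and 7.59 TPM. Smad4 (ENSMUSG00000024515.13, chr18:73639009-73703780, minus strand), the common partner of the receptor-activated SMADs, had 9.33, 7.39 and 7.76 TPM. Smad3 (ENSMUSG00000032402.12, chr9:63646767-63757994, minus strand), which binds DNA directly, had 4.53, 3.57 and 3.98 TPM. Smad3 was the lowest of the 3 in each library, while Smad2 and Smad4 overlapped. The log2 ratio over Smad3 was 0.96 ± 0.09 for Smad2 (1.95-fold) and 1.00 ± 0.05 for Smad4 (2.00-fold). Against the yardstick Smad2 stood at 0.27 ± 0.05 and Smad4 at 0.31 ± 0.03 log2 units above and Smad3 at -0.69 ± 0.06. With the yardstick of at least 5 TPM the signs of Smad2 and Smad4 turned (-0.75 and -0.72), as that of Smad4 did in the second quantification (-0.074), and Smad3 at -1.72 passed the threshold as below.

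Smad7 (ENSMUSG00000025880.11, chr18:75367529-75395935, plus strand), the inhibitory SMAD and a known target gene of TGF-beta, was low and uneven. It had 0.52, 0.87 and 1.04 TPM from 125, 258 and 374 expected counts in replicates 1, 2 and 3. Replicate 1 was the lowest in raw TPM, and also relative to the yardstick (-3.59, -2.67 and -2.47 in log2 units). The effective length used for Smad7 was 4016, 3141 and 3122 bases in replicates 1, 2 and 3. The part of this length in the spread was not tested. Relative to the yardstick the mean level of Smad7 was -2.91 ± 0.60 log2 units (adjusted p = 0.00094, limma). The log2 ratio of Smad7 over Smad3 was -2.90, -1.92 and -1.84, with a mean of -2.22 ± 0.59, a 4.66-fold lower level.

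Of the co-repressors, Skil was the more abundant. Skil (ENSMUSG00000027660.16, chr3:31095058-31122577, plus strand), which encodes SnoN, had 46.1, 37.7 and 33.7 TPM. Ski (ENSMUSG00000029050.15, chr4:155154075-155222592, minus strand), the founding member of the family, had 9.46, 8.54 and 8.15 TPM. The values of the genes did not overlap. Raw TPM of both were highest in replicate 1, where the yardstick was highest too, but relative to the yardstick Ski was lowest there (0.35, 0.48 and 0.39 in log2 units in replicates 1, 2 and 3). The log2 ratio of Skil over Ski was 2.27, 2.13 and 2.03, with a mean of 2.15 ± 0.12, a 4.42-fold higher level. Skil was 2.55 ± 0.12 log2 units above the yardstick (adjusted p = 4.82e-05, limma), higher than 89.5% of the expressed protein-coding genes. Ski was 0.41 ± 0.07 above it, but below it in the second quantification (-0.22) and with the yardstick of at least 5 TPM (-0.62).

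By mean TPM the order was Tgfb1, Skil, Tgfbr2, Tgfbr1, Ski, Smad4, Smad2, Smad3, Smad7 and Inhba. Neighbours were taken to differ when their mean within-library log2 difference exceeded its SD and had the same sign in all 3 libraries, and 7 of the 9 neighbouring pairs did. Smad4 and Smad2 did not differ beyond their spread (0.04 ± 0.08), nor did Smad7 and Inhba (0.07 ± 0.64). The narrowest of the other pairs was Ski over Smad4, at 0.10 ± 0.10. In the second quantification Ski was lower than both Smad2 and Smad4, and 8 of 9 neighbouring pairs differed.

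Variation between libraries was tested on expected counts with edgeR's goodness-of-fit test against the dispersion trend of genes of like abundance. None of the 10 genes departed from the trend at an adjusted p under 0.05, against 2.28% of the 12330 genes tested. At an unadjusted p under 0.05 there were also 0 of 10, for which the share over all genes was not computed. Smad7 came nearest, with 3.54, 5.52 and 6.48 CPM (counts scaled to library size) in replicates 1, 2 and 3 and an unadjusted p of 0.0981 (adjusted p = 1.00, edgeR). The SD of its log2 CPM was 0.447, against a median of 0.155 over the 500 genes nearest in level, and was 0.158 without replicate 1. Inhba had 6.49, 7.55 and 8.68 CPM, with an SD of 0.208 against 0.122 for its neighbours in level. Both low genes were lowest in replicate 1 and highest in replicate 3 on the CPM scale.

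The other genes had smaller SDs, some above and some below the median of genes of like level. Tgfbr2 had 256, 251 and 266 CPM, with an SD of 0.0402 against 0.0840 for the 500 genes nearest in level. Smad2, Smad3 and Ski had SDs of 0.0460, 0.0620 and 0.0682, each under the median of its neighbours in level. Tgfbr1 had 201, 214 and 241 CPM, highest in replicate 3, with an SD of 0.133 against 0.0816. Skil had 472, 461 and 412 CPM, lowest in replicate 3, with an SD of 0.105 against 0.0982. Tgfb1 had an SD of 0.116 against 0.0986, which was 0.0132 without replicate 1, and Smad4 one of 0.0863 against 0.0754.

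**Figure D3:**
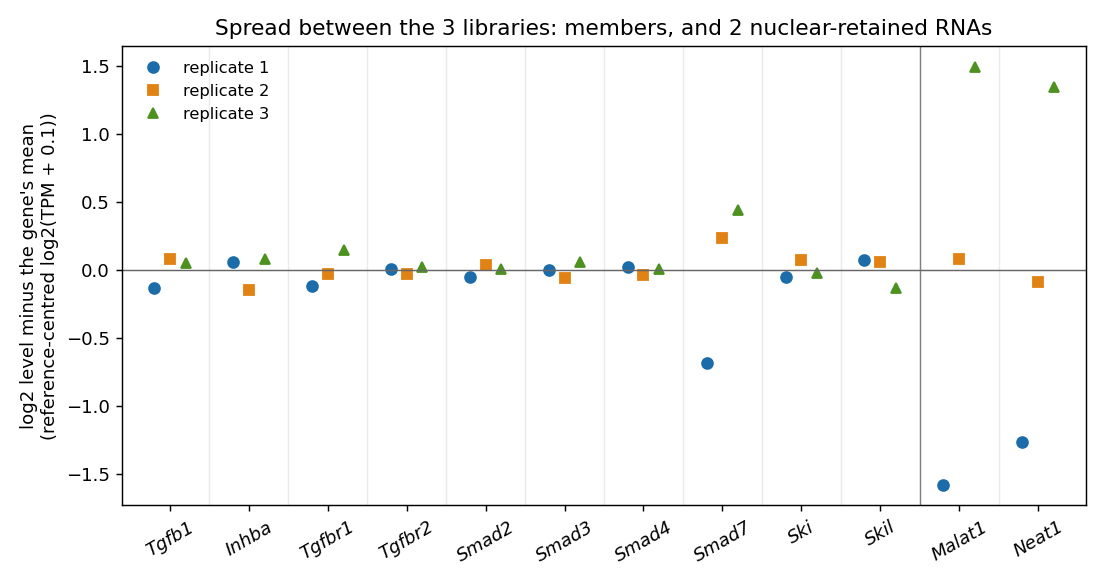
Deviation of each library from the gene's own mean, in log2 units of TPM relative to the library's yardstick, for the 10 genes and for Malat1 and Neat1. Smad7 has the widest spread of the 10 (SD 0.60), while Malat1 and Neat1 run from below -1 in replicate 1 to above 1 in replicate 3.

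The first quantification split the 10 genes into 46 annotated transcripts, of which 20 held a mean share of at least 5%. By mean share over the libraries, 1 transcript held at least 80% of the gene's TPM in 6 genes (Tgfb1, Smad3, Smad4, Tgfbr1, Inhba and Smad7). The threshold was chosen after the values were seen. Single libraries could fall short of it. Smad7-201 held 100.0, 72.4 and 73.1% in replicates 1, 2 and 3, and Inhba-201 held 61.8% in replicate 1. The leading transcript was the same in both quantifications in 9 of 10 genes, with Tgfbr2 the exception. Smad3-201 held 100.0, 97.2 and 94.7% of Smad3 TPM. In the second quantification it held 77.3, 76.7 and 71.2%, and Smad3-202 most of the rest.

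In the first quantification Ski TPM were divided mainly between a coding and a noncoding transcript. Ski-201, which encodes the protein, held 47.5, 53.2 and 53.6% of Ski TPM in replicates 1, 2 and 3. Ski-203, annotated as a processed transcript without a coding sequence, held 48.4, 45.0 and 46.4%. These shares of the first quantification were near equal in every library. The second quantification gave Ski-203 25.2, 11.6 and 19.1%, so the noncoding share depended on the quantification. Ski-203 lacks the first exon of Ski-201, which spans chr4:155221552-155222592 over 1041 bases and has 68.6% G and C, against 52.6% in exons 2 to 7. Exons 2 to 7 are the same in both transcripts, and the first exon of Ski-203 has only 40 bases. Whether base composition bears on the share was not tested.

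Transcripts that keep an intron or lack a coding sequence took their largest share in replicate 3 in Tgfb1, Skil and Smad4, though not in Ski, nor in Smad7 by the second quantification, where replicate 2 had the largest (35.4%). Retained-intron transcripts held 0.71, 1.09 and 1.41% of Tgfb1 TPM in replicates 1, 2 and 3, and 0.09, 0.64 and 1.75% of Skil TPM. Processed transcripts held 0.86, 4.47 and 12.1% of Smad4 TPM (one of these transcripts had 0, 3.47 and 20.3 expected counts), and 5.22, 9.82 and 13.8% by the second quantification. Replicate 3 also had the highest Malat1 and Neat1, and the part of these nuclear RNAs in the result was not tested. A gene model on the opposite strand overlaps Smad4 (AC132418.2) and had 0, 0 and 0.35 TPM. No source used here states strandedness, so reads of overlapping genes on opposite strands may be shared.

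Gene levels were also compared between the quantifications, as the log2 ratio of second over first TPM after subtracting each library's median ratio. None of the 8 genes tested passed the call rule of an adjusted p under 0.05 and a difference of at least 1, against 4.6% of 9476 genes tested. At an unadjusted p under 0.05 there were 7 of 8, against 60.4% of all genes tested. At an adjusted p under 0.05 of any size there were 6 of 8 (limma), against 49.2% of all genes tested. Inhba and Smad7 did not reach the 1 TPM this test required. The differences that were measured were small. Smad3 had 2.69, 1.75 and 1.64 TPM in the second quantification, against 4.53, 3.57 and 3.98 TPM in the first, a centred log2 ratio of 0.27 ± 0.03 (adjusted p = 0.00731, limma). Smad2 had a ratio of 0.26 ± 0.03 (adjusted p = 0.00750, limma) and Ski one of -0.17 ± 0.04 (adjusted p = 0.0178, limma). Tgfb1 had 62.5, 50.9 and 40.7 TPM in the second quantification, against 131, 126 and 126 TPM in the first, a ratio of -0.08 ± 0.03. The raw TPM of these genes were lower in the second quantification in every library, while the centred ratios had both signs.

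Lists of other genes of the pathway were described by their counts, with the same call rule and the 20.5% and 50.6% shares of all genes called above and below. Of 15 other ligand genes only 2 reached the 0.1 TPM needed for the test. Gdf15, a stress-induced member of the superfamily, had 226, 165 and 224 TPM (205 ± 34.9) and was called above, and Gdf3 had 4.40 ± 1.38 TPM and was not called. Tgfb3, another TGF-beta ligand, had 0.09 ± 0.02 TPM and was not tested. Inha, Inhbc, Inhbe, Mstn, Nodal and Lefty2 had 0 counts, and a count of 0 allows up to 0.0891, 0.0628 and 0.0506 CPM in replicates 1, 2 and 3 (3 counts, counting error only). Tgfb2 and Inhbb, named after their values were seen, each had 7 counts over all libraries. Of the 3 TGF-beta ligand genes, Tgfb1 alone averaged at least 0.1 TPM.

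Genes for storing and releasing latent TGF-beta covered a wide range, with a median of 4.13 TPM over all 18. Of these, 14 were tested, 8 were called above, 5 below and 1 neither. Thbs1, a matrix protein that can activate latent TGF-beta, had 125, 144 and 201 TPM in replicates 1, 2 and 3. Itgb1, an integrin subunit, had 111 ± 7.34 TPM. Nrros, which tethers latent TGF-beta on myeloid cells, had 106, 81.3 and 83.5 TPM. Its counterpart on other cells, Lrrc32 (GARP), named after its value was seen, had 0.39 ± 0.07 TPM and was called below. Itgb6 had 0 counts in all 3 libraries.

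Other receptors and extracellular antagonists were low. Of 18, 10 were tested, 8 were called below, 0 above and 2 neither, and the median over all 18 was 0.13 TPM. Bmpr2, a type II receptor for bone morphogenetic proteins, had 9.83 ± 0.86 TPM, the co-receptor Eng 5.59 ± 1.10 TPM and the activin type I receptor Acvr1b 2.52 ± 0.17 TPM. The activin type II receptors, named after their values were seen, had 1.37 ± 0.13 TPM (Acvr2a) and 0.16 ± 0.08 TPM (Acvr2b), each below Tgfbr2. Nog and Chrd, secreted antagonists of bone morphogenetic proteins, had 0 counts. Among the 4 other SMAD genes, Smad1 (2.42 ± 0.30 TPM) and Smad5 (1.44 ± 0.11 TPM) were called below, and the inhibitory Smad6 had 0.05 ± 0.03 TPM and was not tested.

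SMAD adaptors, partners and regulators had a median of 9.01 TPM over 23 genes. Of 21 tested, 10 were called above, 2 below and 9 neither. Wwp1, a ubiquitin ligase that acts on the receptors with SMAD7, had 72.9, 56.5 and 56.7 TPM. Tgif1, a co-repressor of SMAD2 and SMAD3, had 36.9 ± 4.12 TPM, and Fkbp1a, which binds the type I receptor, 33.9 ± 3.71 TPM. Foxh1, a DNA-binding partner of SMAD2, had 0 counts.

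Of 20 genes known as transcriptional targets of TGF-beta, 10 were tested, with 3 called above, 6 below and 1 neither, and the median over all 20 was 0.14 TPM. Cdkn1a, a cell cycle inhibitor, had 426, 345 and 291 TPM, and Id2, an inhibitor of helix-loop-helix factors, had 254, 157 and 150 TPM. Without untreated cells these levels cannot be assigned to TGF-beta or to lipid A.

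**Figure D4:**
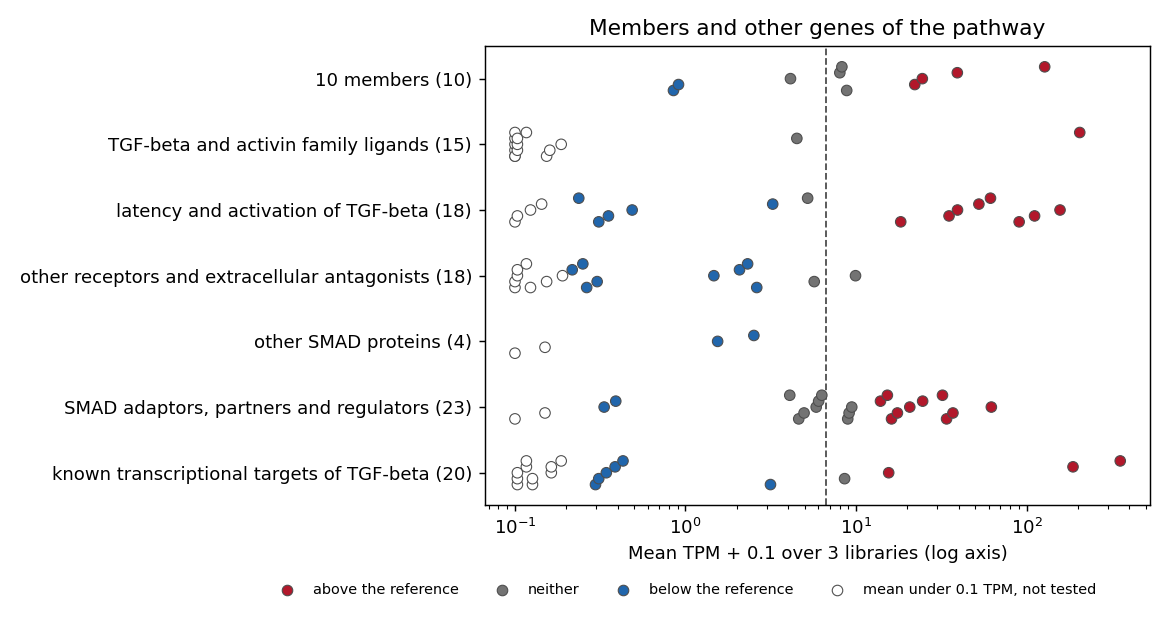
Mean TPM + 0.1 (log axis) of the 10 genes and of 6 lists of other pathway genes, with the number of genes per list in brackets and the dashed line at the median of expressed protein-coding genes. Colours give the call: red above, blue below, grey neither, open under 0.1 TPM and not tested; the other ligands and receptors lie mostly left of the line, and the latency and regulator lists hold the most red points.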

How the data were processed

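Cytosolic RNA of 3 libraries of 1 group was used, and groups and replicate numbers follow the labels. Per the descriptions deposited beside the files, reads were assigned to GENCODE M21 genes on mm10. The first quantification used alignments to the transcriptome and gave expected counts, TPM and FPKM, all as deposited. The second was made straight from the read files and gave estimated counts and TPM, as deposited, summed here from transcripts to genes. No source used here names the tools or versions. The 10 genes and all gene lists were chosen with earlier results of these data known.

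TPM were analysed as log2(TPM + 0.1) minus the library median over protein-coding genes that averaged 1 TPM or more. Genes averaging at least 0.1 TPM entered the test, made with limma 3.58.1 in R 4.3.3, with Benjamini-Hochberg adjustment over all of them. Expected counts were rounded, scaled with edgeR 4.0.16 (TMM, or DESeq2 1.42.0 size factors as an alternative), and tested for goodness of fit to the trended dispersion in genes whose count reached 10 in each library. With 1 group, no quasi-likelihood contrast was possible. Scripts were tested on simulated data. Named genes are the 10, the 3 highest of each list, listed genes with 0 counts, and Malat1 and Neat1. Some genes these rules name are not reported here. A search with blastn 2.17.0 found no long near-identical stretch in another gene. Deposited FPKM served as an alternative unit.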

Additional observations from a re-analysis of the deposited data

How the results depend on the processing

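No paired analysis was possible because the replicate numbers label 1 group only. Of 281 values recomputed under another setting, 12 changed sign, all of single genes. The 281 include SDs between libraries, segment shares and counts of genes or pairs, which cannot change sign. The 12 are therefore not a measure of stability over all 281. With a yardstick of genes of at least 5 TPM, 2 genes instead of 4 were called above, since Tgfbr1 (0.71) and Tgfbr2 (0.85) fell short of a log2 difference of 1. There 3 genes instead of 2 were called below, with Smad3 (-1.72) added, and Smad2 (-0.75), Smad4 (-0.72) and Ski (-0.62) changed sign; that yardstick is higher by construction. In the second quantification Smad4 (-0.074) and Ski (-0.22) changed sign against the yardstick. There 3 genes instead of 6 had a transcript with a mean share of at least 80%. These were Tgfb1 (95.5%), Smad4 (83.6%) and Ski (Ski-201, 81.3%), and Ski was not among the 6. The log2 ratio there was -6.81 for Inhba over Tgfb1, 0.80 for Smad4 over Smad3 and 2.42 for Skil over Ski. The cause of these changes was not tested. With a pseudocount of 1 TPM, which draws low genes together, the ratio was -6.20 for Inhba over Tgfb1, 0.83 for Smad2 over Smad3, -1.48 for Smad7 over Smad3 and 0.86 for Smad4 over Smad3. The centred ratio of second over first quantification changed sign for Tgfbr2 (-0.11), Smad4 (-0.017) and Skil (-0.12) with that pseudocount, for Tgfbr2 (-0.031), Smad4 (-0.049) and Skil (-0.023) when genes of at least 0.1 TPM were tested, and for Tgfbr1 without replicate 1 (-0.017 to 0.0031 over the libraries left out). Leaving out 1 library gave 4 genes above and 2 below each time, 0 genes in the dispersion and quantification tests, 6 to 7 of 9 neighbouring pairs that differed, and 5 to 6 genes with a transcript of at least 80%. The tests of order and of segments against other settings were added after seeing the data. The 125 to 501 counts of Smad7 and Inhba limit their precision.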
